A study of Mus musculus with 9 samples.

Results

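Mature microRNAs of 2 mouse embryonic stem (ES) cell lines labelled as homozygous DGCR8 knockouts were compared with those of wild-type ES cells on 4 two-colour arrays, 2 per line, out of 9 arrays in the series. The microRNAs described here are those with a mouse name and a value in both knockout lines, 113 of the 195 mouse probes and of 206 probes in all, and the rule uses the presence of a value but not its size. V6.5 is a mouse ES cell line. The labels give it as the background of the wild-type cells and, on 1 array, of a knockout line, but they do not describe the alleles or any drug treatment. Each array carried knockout RNA in one channel and wild-type V6.5 RNA in the other, with the dyes swapped between the arrays of a line. The series text describes the lines as independent of each other and the arrays of a line as duplicate hybridisations, so the line is the replicate (n = 2). For comparison the series holds 3 arrays of heterozygous DGCR8 knockout V6.5 cells and 2 arrays of irradiated mouse embryonic fibroblasts, the feeder layer, all against wild-type RNA. ES cells were grown on these feeders and moved off them before RNA extraction, so an ES sample can hold feeder RNA, as the series text says. The arrays carry no probe for Dgcr8 messenger RNA, and the deletion could not be checked on them.

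Most microRNAs are cut from long primary transcripts in the nucleus by a complex of the nuclease Drosha and the RNA-binding protein DGCR8, and the released hairpin is cut again by Dicer to a short duplex. One strand of the duplex, the 5p or the 3p arm of the hairpin, is loaded into an Argonaute protein and pairs with messenger RNAs mainly through its seed, the bases just inside its 5′ end. A few microRNAs are known to reach Dicer without DGCR8. Mouse ES cells are known for high levels of the mir-290 and mir-17 families, which favour rapid division, and for low mature let-7, whose maturation the protein LIN28 blocks.

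The microRNAs at both ends of the range are shown with their mature sequences from the RefSeq table for GRCm38.p6, written 5′ to 3′ with bases 2 to 8, the seed, in capitals. The mature sequences of let-7f-2 and miR-125b have 2 loci each, of which 1 is printed. The first set holds 4 of the lowest ratios and, for contrast, miR-106b. It includes 2 of the mir-290 cluster on chromosome 7, which share the seed AAGUGCU, and 3 with the seed AAAGUGC. Of these, miR-17-5p and miR-106a differed from each other at 1 of 23 positions and came from chromosomes 14 and X, and miR-106b had the smallest reduction with that seed.
miR-291-3p, chr7:3218968-3218989, plus strand: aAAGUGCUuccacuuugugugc
miR-295, chr7:3220815-3220837, plus strand: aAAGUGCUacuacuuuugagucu
miR-17-5p, chr14:115043684-115043706, plus strand: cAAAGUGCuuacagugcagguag
miR-106a, chrX:52742541-52742563, minus strand: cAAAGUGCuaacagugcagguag
miR-106b, chr5:138165787-138165807, minus strand: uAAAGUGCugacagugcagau

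The second set holds the let-7 and mir-99 microRNAs with values in both lines, most of which had ratios near wild type. Others near wild type, such as miR-138 at -0.52 and miR-340 at 0.60, are not printed. All 6 let-7 sequences share the seed GAGGUAG, and both mir-99 sequences share ACCCGUA. Against let-7a, let-7e and let-7f-2 differed at 1 of 22 positions and let-7b, let-7d and let-7g at 2, so that 1 probe may bind its relatives, which was not tested.
let-7a, chr13:48538239-48538260, minus strand: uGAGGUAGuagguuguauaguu
let-7b, chr15:85707325-85707346, plus strand: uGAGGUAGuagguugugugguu
let-7e, chr17:17830366-17830387, plus strand: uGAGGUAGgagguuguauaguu
let-7f-2, chrX:151912353-151912374, plus strand: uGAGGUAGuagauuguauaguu
let-7d, chr13:48536078-48536099, minus strand: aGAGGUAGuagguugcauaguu
let-7g, chr9:106178846-106178867, plus strand: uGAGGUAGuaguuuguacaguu
miR-99a, chr16:77598940-77598961, plus strand: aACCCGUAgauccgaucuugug
miR-99b, chr17:17830194-17830215, plus strand: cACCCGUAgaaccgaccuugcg

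The third set is used for comparisons between neighbours and between arms. The hairpin of miR-125a lies beside those of miR-99b and let-7e on chromosome 17, miR-125b shares its seed CCCUGAG, and miR-126 is the 3p arm of the hairpin whose other arm is miR-126*.
miR-125a, chr17:17830817-17830840, plus strand: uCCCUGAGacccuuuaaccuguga
miR-125b, chr9:41581940-41581961, plus strand: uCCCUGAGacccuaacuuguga
miR-126, chr2:26591402-26591423, plus strand: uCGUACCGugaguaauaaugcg

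Nearly all measured microRNAs were far lower in the knockout lines than in wild-type cells. Of the 113, 101 were called lower (89.4%), 1 was called higher (0.885%) and 11 passed in neither direction, by limma on the means of the 2 lines against 0 with a Benjamini-Hochberg adjusted p under 0.05 over the 113. The median ratio was -5.58 on the log2 scale, a 48.0-fold reduction to 2.08% of wild type. The reduction was more than 10-fold for 90 microRNAs (79.6%), more than 100-fold for 33 (29.2%) and more than 200-fold for 8. By level, 33 were under 1% of wild type, 57 between 1% and 10%, 12 between 10% and 50%, and 11 above 50%. The sign means knockout over wild type, which is the likely direction, because the series text calls wild type the reference, but no label states it.

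Directions are given on the deposited scale, which the authors set by added control RNAs. Centring each array on its median, which sets the typical microRNA to no change, shifted the median of all by 5.603, called 22 lower and 29 higher, and gave positive values to all 6 let-7 and both mir-99 microRNAs described below. limma pooled the spread of the 2 lines fully over the microRNAs, so that every mean had the same standard error, 0.578 on the log2 scale. A call therefore depended on the mean alone, and a microRNA whose lines disagreed was tested with the spread typical of the rest. The 2 lines left 1 residual degree of freedom per microRNA, and the pooling added its own, estimated as infinite. The p-values and confidence intervals against wild type thus rest on pooling over microRNAs of the same arrays, which are not independent samples. A very small p-value in this test overstates what 2 lines can show. Wild-type RNA served only as the reference, so its own spread is left out. The deposited ratios were analysed without spot intensities, so how low a ratio the arrays could resolve is unknown. Precision is limited by having 2 lines, each with 2 arrays that are duplicate hybridisations.

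**Figure D1:**
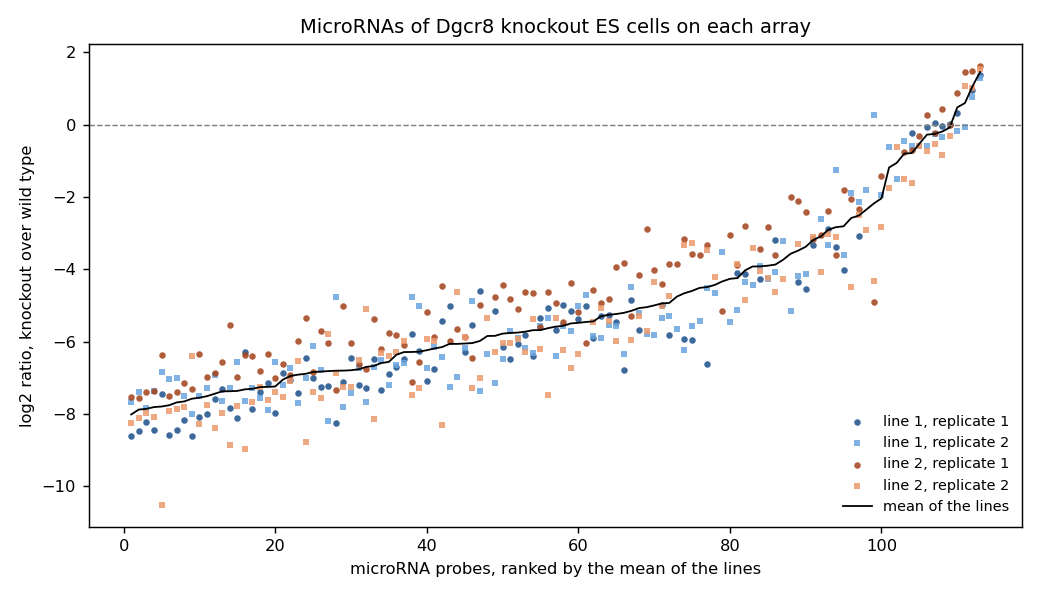
Log2 ratio of knockout over wild type (vertical axis) for the 113 microRNAs ranked by the mean of the 2 lines (horizontal axis), with 1 point per array and a black line through the means. The means run from -8.01 for miR-291-3p to 1.46 for miR-320, and 104 microRNAs were below 0 on every knockout array with a value.

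The 10 lowest means among microRNAs with 4 values held 4 of the mir-290 cluster, 4 of the mir-17 and mir-106a clusters, miR-376a and miR-15b. miR-291-3p, which targets inhibitors of the step from G1 to S phase in mouse ES cells, had log2 ratios of -8.60 and -7.67 on the arrays of line 1 and -7.53 and -8.25 on those of line 2. Its mean was -8.01 ± 0.18 (SD, n = 2 lines), a 258-fold reduction (limma adjusted p = 4.25e-24, which rests on the spread pooled over microRNAs). miR-295, with the same seed, had -8.47 and -7.38 in line 1 and -7.56 and -8.10 in line 2, with a mean of -7.88 ± 0.07 (SD, n = 2 lines). No array of either microRNA came near the heterozygous arrays, which lay between -0.40 and 0.18 for miR-291-3p.

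All 8 probes of the mir-290 cluster were called lower, where 89.4% of all 113 were. Their median was -7.52 against -5.58 over all 113, and 7 were reduced more than 100-fold, where 29.2% of all 113 were. Their means ran from -8.01 for miR-291-3p to -6.59 for miR-291-5p, the other arm of the same hairpin. miR-290 varied most between arrays, with -8.25 and -4.78 in line 1 and -7.33 and -6.86 in line 2. The wild-type reference carried these ES cell markers well above the feeder fibroblasts, in which the cluster's median ratio to wild type was -7.28. The knockout medians were -7.54 in line 1 and -7.51 in line 2, near that feeder value, and how close such ratios come to the background of the arrays is unknown. The mir-302 cluster, another set typical of pluripotent and early embryonic cells, had values for 3 of its 5 probes, all called lower, at -5.68 for miR-302a, -4.33 for miR-367 and -3.74 for miR-302c.

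The mir-17, mir-106a and mir-106b clusters, polycistrons known for promoting proliferation, had values for all 10 probes, and all 10 were called lower, where 89.4% of all 113 were, with a median of -7.14. miR-106a had log2 ratios of -8.23, -7.83, -7.39 and -7.98 on the arrays in the order of lines and replicates, and a mean of -7.86 ± 0.24 (SD, n = 2 lines). miR-17-5p had -8.44, -7.36, -7.35 and -8.08 in the same order, a mean of -7.81 ± 0.13 and a 224-fold reduction. These probes recognise sequences that are alike at all but 1 position, and their values lay close together on every array.

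miR-106b stood apart from the relatives that share its seed. Its ratios were -4.10 and -5.13 in line 1 and -3.88 and -3.85 in line 2, so that no array reached those of miR-93, its neighbour in the same transcript, at -7.42, -7.70, -5.99 and -6.54. The means were -4.24 ± 0.53 and -6.91 ± 0.92 (SD, n = 2 lines), both called lower (limma adjusted p = 4.85e-11 and 4.01e-21). The difference between these microRNAs was not tested, since each is read by its own probe. The other members were miR-92 at -7.65, miR-20 at -7.58, miR-17-3p at -7.37, miR-18 at -6.81, miR-19a at -6.70 and miR-25 at -6.29.

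Families that hold back the cell cycle or are widely expressed fell as well. Their counts called lower are to be read against the 89.4% of all 113. All 4 measured members of the mir-15, mir-16 and mir-195 family, which target cyclins, were called lower with a median of -7.07. miR-15b had -8.09 and -7.51 in line 1 and -6.33 and -8.27 in line 2, with a mean of -7.55 ± 0.35 (SD, n = 2 lines). miR-103 and miR-107, which differ at 1 of 23 positions, lay at -6.95 and -6.76. The median was -6.06 for 4 of 4 members called lower in the mir-130, mir-301 and mir-148 families, -6.47 for miR-30a-5p and miR-30b, -5.95 for 4 of 4 in the mir-23, mir-24 and mir-27 clusters, and -5.64 for miR-26a and miR-101. Of the mir-181 family, known from lymphocyte development, miR-181b was at -5.30 and miR-181a at -3.92.

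The Dlk1-Gtl2 region on chromosome 12 holds a large cluster of imprinted microRNAs transcribed from the maternal chromosome. Of its 21 probes, 19 had values in both lines and all 19 were called lower, where 89.4% of all 113 were. Their median was -5.68, close to the median of all 113, with a range from -7.79 for miR-376a to -2.83 for miR-341. miR-376a had -7.46 and -6.83 in line 1 and -6.38 and -10.51 in line 2. The last of these was far below the other array of that line, a wider gap than between the lines. miR-341 had -3.37, -1.25, -3.61 and -3.11, and its heterozygous arrays were also below wild type, at -1.02, -0.98 and -1.59. Its knockout and heterozygous arrays overlapped, through replicate 2 of line 1.

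**Figure D2:**
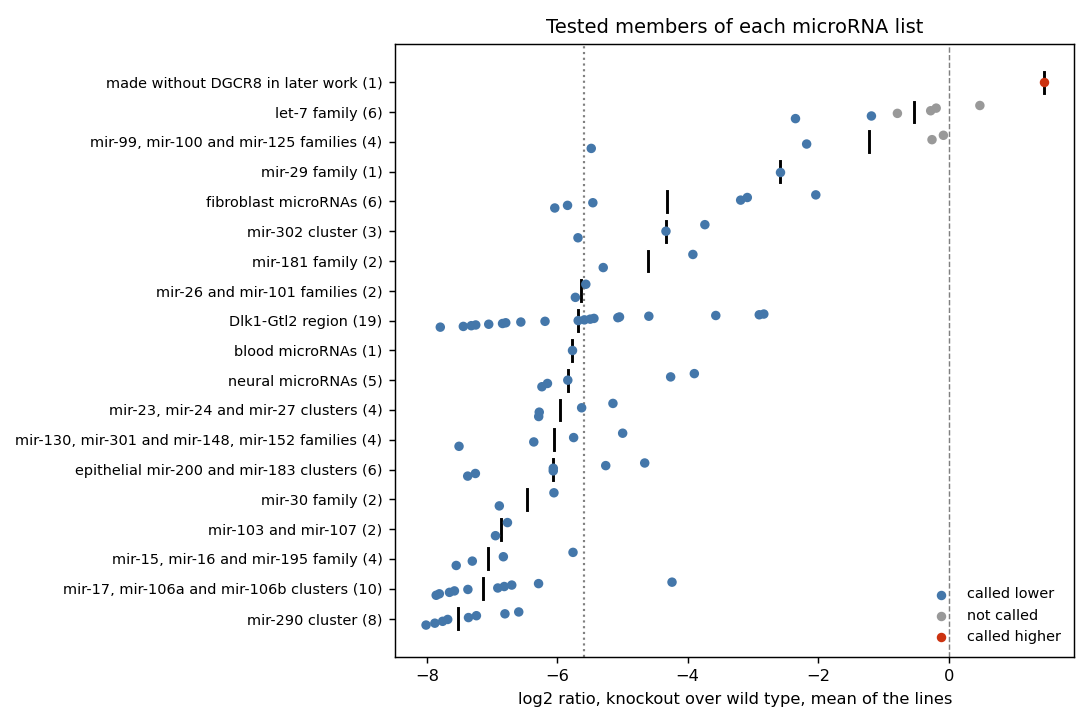
Mean log2 ratio of knockout over wild type (horizontal axis) for the tested members of each cluster, family or tissue list, 1 point per microRNA coloured by call, a bar at the list's median and a dotted line at the median of all 113. The let-7 and mir-99, mir-100 and mir-125 lists hold members near 0, with medians of -0.53 and -1.22, while the mir-290 cluster has the lowest median, -7.52.

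Markers of other tissues with values in both lines were also called lower, at shares near the 89.4% of all 113. The epithelial mir-200 and mir-183 clusters had 6 of 6 members called lower, with a median of -6.06, from miR-182 at -7.37 to miR-141 at -4.66. Of the 10 neural probes 5 were tested and 5 called lower, with miR-124a, the most abundant microRNA of neurons, at -6.24, miR-128a at -6.15, miR-7 at -5.84, miR-9* at -4.26 and miR-219 at -3.90. miR-150, known from mature lymphocytes, was the single tested one of 6 blood probes, at -5.78. Neither of 2 muscle probes and none of 6 liver and pancreas probes had a value in both lines.

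Most measured let-7 microRNAs, 4 of 6, were not called lower. let-7a had log2 ratios of -0.03 and -0.33 in line 1 and 0.44 and -0.84 in line 2, with a mean of -0.19 ± 0.02 (SD, n = 2 lines), or 87.6% of wild type. let-7b had -0.05, -0.59, 0.28 and -0.74 and let-7e had -0.24, -0.58, -0.70 and -1.61 in the same order. The arrays of let-7a and let-7b lay on both sides of wild type, and those of let-7e lay below it. let-7f-2 had 0.32 and -0.17 in line 1 and 0.89 on the 1 array with a value in line 2.

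Of the 6 let-7 probes with values in both lines, 2 were called lower, let-7g and let-7d, and 4 were not called, and the median was -0.53. let-7g had -1.80 in line 1 and -2.90 in line 2, on 1 array each, a mean of -2.35 ± 0.78 (SD, n = 2 lines) and a 5.09-fold reduction (limma adjusted p = 1.03e-04). let-7d had -0.62 and -1.74, also on 1 array each, and its mean of -1.18 passed narrowly (limma adjusted p = 0.0474). The call of let-7d was lost with line as a random block (limma adjusted p = 0.0756), in 3 other fits and without replicate 1 of either line. Its range over these alternatives was 0.0502 to 0.0817. The let-7 microRNAs were high in the feeder fibroblasts, at a median of 4.74 over wild type, and the part of feeder RNA in their knockout ratios was not tested.

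The mir-99 microRNAs, conserved neighbours of let-7 genes, were also near wild type, and miR-99a had the mean closest to 0 of all 113. miR-99a had 0.01 and -0.01 in line 1 and -0.01 and -0.31 in line 2, a mean of -0.08 with a 95% interval from -1.22 to 1.06. miR-99b had 0.03, -0.26, -0.24 and -0.54, a mean of -0.25 ± 0.20 (SD, n = 2 lines). Neither was called (limma adjusted p = 0.891 and 0.672), which does not show equality with wild type, since the interval of miR-99a reaches past 1 log2 unit in each direction. In feeders miR-99a was above wild type on both arrays, at 3.09 and 1.84, with a mean of 2.46. The feeder arrays of miR-99b lay on both sides of wild type, at 1.76 and -0.39, with a mean of 0.69.

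Another 3 microRNAs with means below wild type were not called and had values on 2 or 3 arrays. miR-138, known from neuronal dendrites, had -0.60 in line 1 and -0.32 and -0.58 in line 2, with a mean of -0.52. miR-211, encoded in an intron of Trpm1, had -0.46 in line 1 and -0.76 and -1.51 in line 2, with a mean of -0.80. miR-140, known from cartilage, had -1.51 and -0.61 on 1 array of each line, with a mean of -1.06 (limma adjusted p = 0.0758). All of their arrays lay below wild type. miR-140 was called lower when the spread was shared with the heterozygous and feeder values (limma adjusted p = 0.0266) and with robust moderation of the variance (0.0466). Over all alternatives that kept the deposited scale, no other microRNA of the 11 was called lower.

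**Figure D3:**
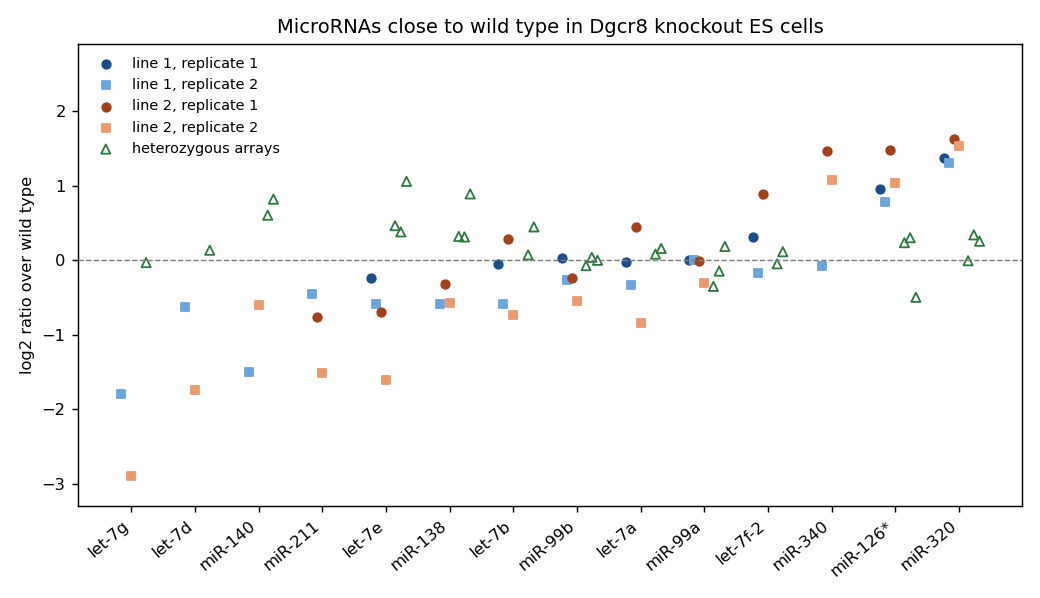
Log2 ratio over wild type (vertical axis) of the 12 microRNAs not called lower and of let-7g and let-7d, with 1 filled symbol per knockout array and 1 open triangle per heterozygous array. Knockout points of let-7a, let-7b, miR-99a and miR-99b lie around 0, and those of miR-320 lie between 1.30 and 1.63, above its heterozygous points.

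Of the 12 microRNAs not called lower, 11 had a feeder value and 10 of those were above 0, with feeder means from -0.19 to 5.44. Of the microRNAs called lower, 89 had a feeder value and 49 were above 0. The fibroblast list had 13 probes, and its 6 tested members were all called lower, where 89.4% of all 113 were, with a median of -4.32. The list's median on the knockout arrays was -5.02 and -3.95 in line 1 and -3.17 and -4.07 in line 2. These medians are over the members with a value on each array, which differ, so they are not like for like. Replicate 1 of line 1 had values for miR-21, miR-22 and miR-31 only. The means of the 6 ran from miR-21 at -6.04, through miR-34a at -5.84, miR-22 at -5.46, miR-31 at -3.19 and miR-222 at -3.09, to miR-221 at -2.04. Their median in feeders was 3.55 above wild type. Of the other probes of the list, 1 had a value in a single line and 6 had none on any knockout array. The part of feeder RNA in the knockout ratios was not tested, and less RNA per cell and fewer cells of a kind cannot be told apart in bulk RNA.

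One microRNA was called higher. miR-320, which in mouse ES cells is known to be made with Dicer but without DGCR8, had log2 ratios of 1.38 and 1.30 in line 1 and 1.63 and 1.53 in line 2. All 4 arrays were above wild type and above the heterozygous arrays, which lay at -0.01, 0.34 and 0.25. The mean of 1.46 ± 0.17 (SD, n = 2 lines) was 274% of wild type, with a 95% interval from 0.31 to 2.60 in log2 (limma adjusted p = 0.0147). The feeder arrays were at 1.18 and -0.04.

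Besides let-7f-2, another 2 microRNAs had positive means without a call. miR-126* had 0.95 and 0.78 in line 1 and 1.48 and 1.03 in line 2, all above wild type, with a mean of 1.06 ± 0.28 (SD, n = 2 lines; limma adjusted p = 0.0758). It was called higher with arrays as single values (limma adjusted p = 0.0156) and in 5 other fits on the deposited scale, and without replicate 1 of line 1 or either array of line 2 it was not. miR-340 had -0.08 in line 1 and 1.47 and 1.07 in line 2, with a mean of 0.60 that was not called. Its lines fell on different sides of wild type.

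The arms of a hairpin come from 1 primary transcript, and 5 hairpins had both arms among the 113. In 4 of them the arms were alike, with gaps of 0.32 for miR-292, 0.44 for miR-17, 0.57 for miR-324 and 1.42 for miR-291. All 8 of these arms were called lower, where 89.4% of all 113 were. miR-126 differed, at -5.42 in line 1 and -3.61 in line 2 on 1 array each, while the other arm, miR-126*, was at 0.78 and 1.48 on these same arrays. The gap of the means was 5.57. miR-126 is the arm usually loaded in endothelial cells, where its host gene Egfl7 is active.

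MicroRNA genes that each started within 10000 bases of the next on the same strand formed 17 groups with 61 members. In 15 groups every member was called lower, a count to be read against the 89.4% called lower among all 113. A mature sequence with 2 loci, such as that of miR-92 or miR-16, was placed at 1 of them. The means spanned less than 2 log2 units in 13 groups, for example 1.11 over the 6 probes of the mir-17 cluster and 1.42 over the 8 of the mir-290 cluster. Only 2 groups spanned more than 3. One was the largest chromosome 12 group, with 15 members over 33540 bases and a span of 4.89. The other was miR-99b, let-7e and miR-125a on chromosome 17, within 624 bases of each other. Their means were -0.25, -0.78 and -5.48, a span of 5.22, and on each of the 4 arrays miR-125a was the lowest of these, at -5.37, -5.03, -5.18 and -6.35. miR-125a had feeder arrays at 4.52 and 3.67, about as high as those of let-7e at 4.59 and 2.92.

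**Figure D4:**
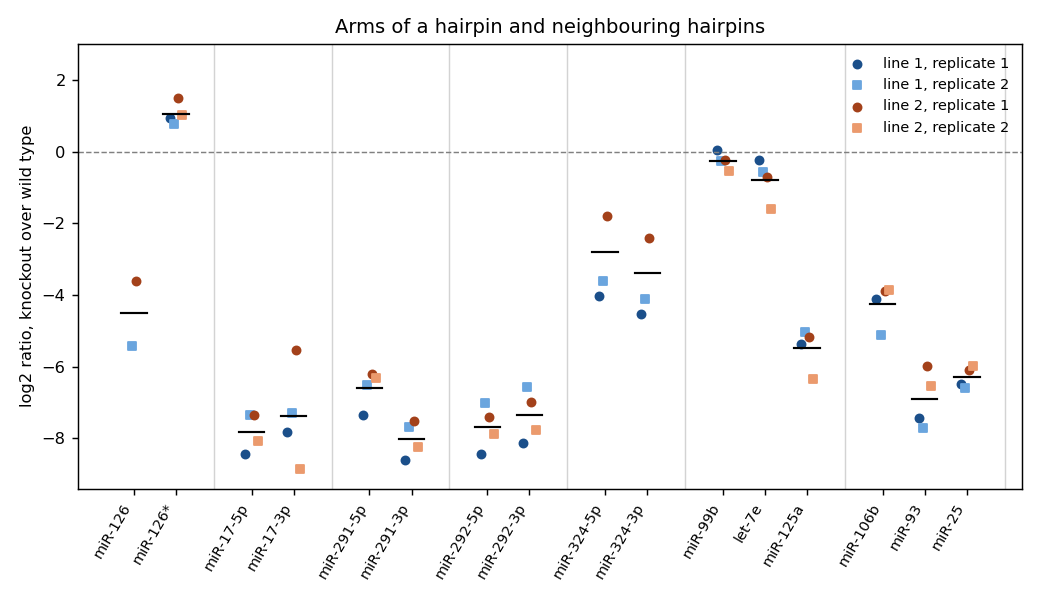
Log2 ratio of knockout over wild type (vertical axis) for the 5 hairpins with both arms measured and for 2 groups of neighbouring microRNA genes, divided by grey lines, with 1 point per array and a bar at the mean of the lines. The arms of miR-126 are 5.57 apart and the group of miR-99b, let-7e and miR-125a spans 5.22, while the other hairpins and the group of miR-106b, miR-93 and miR-25 span at most 2.67.

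Members with the same seed were not always alike. A mature sequence was found for 87 of the 113, and 38 of these fell into 13 groups with a shared seed. The means spanned less than 1 log2 unit in 4 groups, among them 0.77 for miR-291-3p, miR-294 and miR-295 and 0.17 for miR-99a and miR-99b. They spanned more than 2 in 4 groups, with 3.62 for the seed AAAGUGC, 3.32 for miR-92, miR-25 and miR-367, 3.30 for miR-125a and miR-125b and 2.83 for let-7. By arm, 48 members of the 5p arm had a median of -5.14, with 8 not called, and 39 of the 3p arm had a median of -5.98, with 0 not called. Of those 8, let-7 and mir-99 made up 6, so that the members of an arm are not independent. Only 8 of the 12 microRNAs not called lower had a mature sequence. The others, miR-320, miR-126*, miR-340 and miR-140, are in neither arm count. Over all 113, 11 were not called. Content of G and C did not order the ratios (Spearman rho of 0.05 over 87 microRNAs of the same arrays).

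The knockout lines were next set against the heterozygous cells, so that the wild-type reference cancels. Of 90 microRNAs with values in both lines and on at least 2 heterozygous arrays, 82 were called lower (91.1%) and 2 higher (2.22%) in the homozygous lines by limma, with a median difference of -5.86 in log2. All knockout arrays lay below all heterozygous arrays for 81 (90.0%) and above them for 2 (2.22%), and 7 overlapped. For 89 of the 90 the heterozygous mean itself lay within 2-fold of wild type, with a median of -0.05. The 2 called higher were miR-320, by 1.26 ± 0.26 (SE; limma adjusted p = 0.00322), and miR-126*, by 1.05 ± 0.35 (SE; limma adjusted p = 0.0246), whose heterozygous arrays were at 0.23, 0.30 and -0.50. With single arrays and the replicate number as a block, miR-320 was still called higher, by 1.29 (limma adjusted p = 0.0184), and miR-126* was not (0.111). In that fit heterozygous replicate 3 was the only array with its number, so its value, -0.50 for miR-126*, did not enter the difference.

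This comparison moved some of the microRNAs near wild type across the threshold. let-7e was 1.42 below the heterozygous cells in log2, a difference of -1.42 ± 0.36 (SE; limma adjusted p = 0.00878), with heterozygous arrays at 0.46, 0.38 and 1.06. miR-138 differed by -1.03 (limma adjusted p = 0.0141) and miR-140 by -1.77 (limma adjusted p = 0.00832), and their heterozygous means of 0.50 and 0.71 were also above wild type. With the replicate block let-7e was still called (limma adjusted p = 0.0453), while miR-138 (0.143), miR-140 (0.0561) and miR-29b (0.0561) were not. The 6 that were not called were let-7a, let-7b, let-7f-2, miR-99a, miR-99b and miR-125b. The difference was -0.31 with a 95% interval from -1.03 to 0.41 for let-7a, and 0.03 with an interval from -0.65 to 0.70 for miR-99a.

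The knockout lines resembled each other. Their means correlated with Pearson's r of 0.89 and Spearman's rho of 0.86 across the 113 microRNAs, which share arrays and a reference, and 77 differed by less than 2-fold. The median SD of the lines was 0.41. Among the 84 microRNAs with values on all 4 arrays, the median absolute difference was 0.53 between the arrays of line 1 and 0.72 between those of line 2. Between single arrays of different lines it was 0.89 and 0.63 from replicate 1 of line 1 and 0.88 and 0.65 from its replicate 2, to replicates 1 and 2 of line 2, so that the ranges within and between lines overlapped. Line 2 was higher for 76 of the 113, with a median difference of 0.37. Within line 2 the array with swapped dyes was lower by a median of -0.71, and within line 1 it was higher by 0.07.

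**Figure D5:**
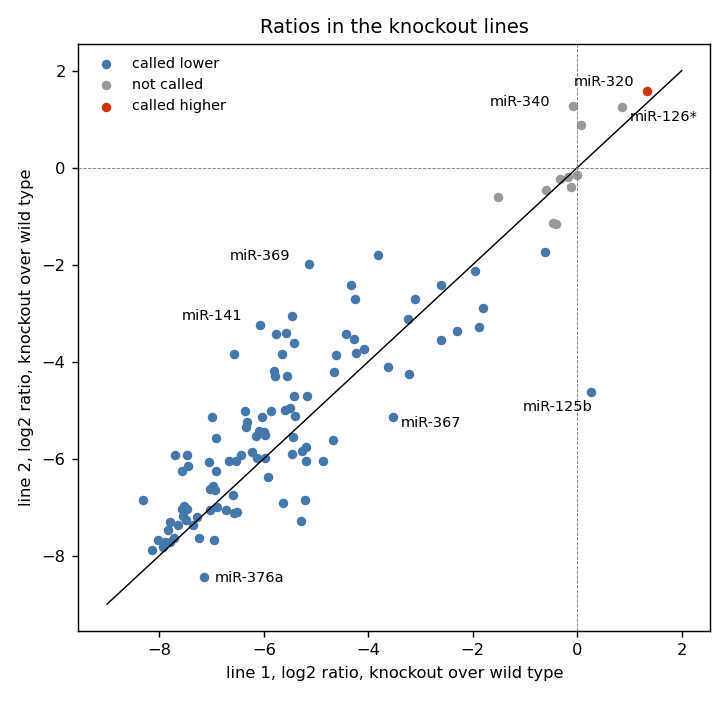
Mean log2 ratio over wild type in knockout line 1 (horizontal axis) and line 2 (vertical axis) for the 113 microRNAs, with the line of equality. Most points follow the line (Pearson's r of 0.89), and miR-125b lies far below it with 0.26 in line 1 and -4.62 in line 2.

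Of 101 microRNAs with values on at least 3 knockout arrays, 1 was called lower (0.99%) and 1 higher (0.99%) in line 2 than in line 1 by limma on single arrays, which covers the spread of hybridisation only. miR-125b, known from neural and blood differentiation, had 0.26 on the 1 array with a value in line 1 and -4.90 and -4.34 in line 2. The difference was -4.88 ± 0.87 (SE; limma adjusted p = 0.00205). It had values on 3 arrays, the fewest the test accepted, so without any 1 of them it was not tested. The mean of miR-125b against wild type, -2.18, was called lower with the spread pooled over microRNAs. The call held with arrays as single values, with line as a random block and with the replicate number as a block. That call was lost with the spread shared with the other groups (limma adjusted p = 0.131), with robust moderation (0.541) and without replicate 1 of line 2 (0.191).

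miR-141, an epithelial microRNA that targets Zeb transcription factors, was the other, with -5.93 and -6.22 in line 1 and -3.15 and -3.34 in line 2. The lines did not overlap, and the difference was 2.83 ± 0.69 (SE; limma adjusted p = 0.0282). Neither difference between lines was called with the replicate number, which is also the dye orientation, as a block or with each array centred on its median, and that of miR-141 was also lost without either array of line 1. miR-370 and miR-339 were higher in line 2 by 2.33 and 2.73 without a call (limma adjusted p = 0.103 and 0.135). miR-369 had the second widest gap between lines, -5.14 and -1.997 on 1 array each, too few arrays for the test. The widest gaps between arrays of 1 line were those of miR-376a, miR-128a, miR-290, miR-30b and miR-17-3p. In miR-128a the arrays of line 2 stood at -4.46 and -8.31.

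The number of arrays behind a value went with its size. The 84 microRNAs with values on all 4 arrays had a median of -6.10, with 77 called lower, and the 29 with fewer had a median of -3.74, with 24 called lower. There were 26 microRNAs with fewer than 2 heterozygous values or no feeder value, whose median was -4.46, and 24 of these were called lower. All these counts called lower are to be read against the 89.4% of all 113. The 5 lowest of the 26 were miR-195 at -6.83, miR-350 at -6.67, miR-128a at -6.15, miR-34a at -5.84 and miR-302a at -5.68, and the 2 not called were miR-211 and miR-340. Outside the rule, 13 probes had a value in line 1 only and 5 in line 2 only. All 18 were below 0, from -5.62 to -0.80, with a median of -3.48. The remaining 64 mouse probes had no value in either line, and 40 of them had none on any array. Feeder values were present for 22 of these 64, all above 0.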

How the data were processed

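Per the labels' protocols, gel-purified small RNA with equal amounts of added control RNAs was polyadenylated, joined to capture sequences and hybridised by the NCode method. Per the series text, the authors normalised ratios on the control RNAs. The deposited values were log10 ratios, and the deposited column of line 1 replicate 1 held 2 spreadsheet error cells (other unit), treated as missing like the null cells. The log10 base was read from line 1 replicate 2, on which 90 of 90 low values equalled the log10 of a 4-decimal ratio (3.92% by chance). On the other knockout arrays 1 of 76, 2 of 68 and 4 of 75 did, near the share by chance, so these do not show their base. It was carried over to them, as their SDs were 0.94 to 1.08 times each other in pairs. Scanner, background correction and the rule for missing spots: not given in the sources used here. Scale beyond the control RNAs and centring are unknown, and the direction is the likely one, not a stated one.

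Multiplication by 3.3219 turned log10 into log2 ratios, with no pseudocount or scaling. Between 93 and 131 of 206 probes had a value on a knockout array. Mouse medians in log2 were -6.16 and -5.57 (line 1), -4.91 and -5.94 (line 2), and -0.18, 0.03 and 0.09 for heterozygous cells. The arrays of a line were averaged and the 2 line means tested against 0 with limma 3.58.1 (lmFit, eBayes; statmod 1.5.0, R 4.3.3). The prior SD was 0.817. Heterozygous arrays entered singly, and their p-values measure a spread that may be technical. The scripts were tested on simulated data. Replicate numbers are also dye orientations on the knockout and feeder arrays, while heterozygous replicates 1 and 3 share an orientation. The deviations of same-numbered arrays of the lines correlated with r = 0.31 over 84 microRNAs, but with 2 pairs the numbers were not taken to pair the samples.

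Members and lists were chosen with earlier results of these data known. Named microRNAs were the 10 lowest with 4 values, those called higher or not called, the 10 nearest to or above 0, the lowest and highest of each list and all of lists with at most 10 tested, the 5 widest gaps between and within lines, and the 5 lowest of those with few heterozygous or feeder values. Partners in a hairpin, seed or neighbour group were named after their values were seen. Probe names were matched to RefSeq genes of GRCm38.p6, and 195 of 206 matched. A probe name without an arm was given the arm usually meant. Mature sequences were found for 140 of the 195.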

Additional observations from a re-analysis of the deposited data

Results flagged for a closer look

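The knockout lines differed by limma on single arrays for 2 microRNAs. miR-125b was at 0.26 on 1 array of line 1 and at -4.90 and -4.34 in line 2, a log2 difference of -4.88, line 2 minus line 1 (limma adjusted p = 0.00205). miR-141 was at -5.93 and -6.22 in line 1 and at -3.15 and -3.34 in line 2, a difference of 2.83 (limma adjusted p = 0.0282). Neither was called with the replicate number as a block or with centred arrays, and the part of dye orientation was not tested further. No group held 4 or more arrays of its own, so single arrays were not tested as outliers.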

How the results depend on the processing

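The count called lower against wild type was 100 or 101 of 113 with 5 other fits on the deposited scale (shared spread, single arrays, line as a random block, replicate block, robust moderation), 77 of 84 with values on all 4 arrays, 105 of 117 with probes of any species and 82 to 100 without 1 array, where the number tested also fell (82 of 90, 89 of 102, 95 of 106 and 100 of 113). The count called higher was 2, miR-126* added, in those 5 fits and with values on all 4 arrays, and 1 to 2 without 1 array. The median was -6.10 with values on all 4 arrays and -6.003 to -5.42 without 1 array. With the replicate block, which is also the dye orientation, 100 were called lower and 2 higher against wild type, 79 lower and 1 higher against the heterozygous cells, and 0 in each direction between the lines. Among the named microRNAs it changed the call against wild type for miR-126* and let-7d and for no other. Without 1 array, the counts against the heterozygous cells were 65 of 69 to 81 of 90 lower and 2 to 2 higher, and between the lines 0 to 1 lower and 0 to 2 higher. Between the lines miR-125b was not tested without replicate 2 of line 1 or without either array of line 2. The mean of let-7a was -0.51 to 0.13 without 1 array, positive without replicate 2 of line 2.

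Centring each array on its median, which removes a common shift by construction, moved the median of all microRNAs by 5.603 to 0.0181, and ratios are then relative to the typical microRNA. The counts became 22 lower and 29 higher against wild type, 28 and 23 against the heterozygous cells, and 0 and 0 between the lines. The named microRNAs that changed sign lay, in log2, at 4.70 for miR-140 and 4.70 for miR-211, 4.86 for let-7e, 4.97 for miR-138, 5.37 for let-7b, 5.39 for miR-99b, 5.45 for let-7a, 5.57 for miR-99a, 4.57 for let-7d, 3.41 for let-7g, 3.32 for miR-125b and 0.17 for miR-125a. Others were at 3.46 for miR-221, 2.41 for miR-222, 2.46 for miR-31, 2.92 for miR-29b, 2.81 for miR-341, 1.67 for miR-369, 1.83 for miR-181a, 0.35 for miR-181b, 2.02 for miR-302c, 0.91 for miR-367, 1.40 for miR-106b, 1.599 for miR-219, 0.98 for miR-9*, 0.99 for miR-141, 0.39 for miR-96, 0.50 for miR-148a, 0.50 for miR-24, 0.18 for miR-339, 0.0819 for miR-26a and 0.0181 for miR-27a. Signal over background, which limits how low a ratio can be read, is unknown.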

Other observations

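Among the 11 probes with no mouse gene of their name, 4 had values in both knockout lines, miR-368, miR-371, miR-373* and miR-422a, and stayed out of the counts.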
